A study of Mus musculus with 18 samples.

Results

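The neuromuscular junction genes were followed in immortalized mouse myoblasts that proliferated (Prol), had just become confluent (D0) or had differentiated to day 2 (D2). The genes were chosen by name and numbered 10, namely the muscle acetylcholine receptor subunits *Chrna1*, *Chrnb1*, *Chrnd*, *Chrng* and *Chrne* and the genes of the agrin pathway, *Agrn*, *Lrp4*, *Musk*, *Dok7* and *Rapsn*. Of these 10 genes, 9 were among the 19153 genes measured, all 9 had more than 5 counts in every library of at least 1 group, and *Chrne* was not analysed here. All cells lacked p53. The knockout (KO) cells had also lost LAP2α, a nucleoplasmic protein that binds lamin A/C and is encoded by *Tmpo*, after CRISPR-Cas9 editing, whereas the wildtype (WT) controls had received Cas9 without a guide RNA. Both were pools of sorted cells and not grown from a single cell. Prol and D0 cells were kept in 20% serum, and D2 cells had spent 48 hours in 5% serum. Each of the 6 combinations of genotype and state had 3 libraries of polyadenylated RNA. Whether these 3 came from separate cultures was not stated, so that p-values measure the spread between these libraries.

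At the neuromuscular junction, the motor nerve releases agrin, which binds the receptor LRP4 on the muscle membrane and thereby activates the kinase MuSK. Dok-7 binds MuSK inside the cell and is needed for its activity, and rapsyn gathers acetylcholine receptors into dense clusters under the nerve terminal. The receptor of fetal muscle contains the γ subunit, which the ε subunit replaces in innervated adult muscle. Cultured myotubes make the γ form, and myogenic factors such as MyoD and myogenin, which bind E-boxes, are known to activate the subunit genes.

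The sequences upstream of 4 of the genes are shown, 3 of which rose at D2, while *Agrn* did not pass the test. *Chrnb1* and *Dok7*, whose sequences are not printed, rose at D2 as well. Each is RefSeq sequence of the mouse build GRCm38.p6, covers bases 200 to 11 upstream of the annotated transcription start, and is written 5′ to 3′ on the strand of the gene, with E-boxes (CANNTG, a pattern that is its own reverse complement) in capitals. The *Chrng* stretch is chr1:87205611-87205800 on the plus strand and lies inside the annotated gene, since another transcript starts further upstream. The *Chrna1* stretch is chr2:73580349-73580538 on the minus strand. The *Musk* stretch is chr4:58285762-58285951 on the plus strand, and the *Agrn* stretch is chr4:156197499-156197688 on the minus strand.
Chrng: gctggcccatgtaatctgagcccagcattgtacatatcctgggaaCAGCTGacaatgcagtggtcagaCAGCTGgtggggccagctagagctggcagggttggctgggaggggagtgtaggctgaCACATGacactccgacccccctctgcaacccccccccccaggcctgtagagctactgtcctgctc
Chrna1: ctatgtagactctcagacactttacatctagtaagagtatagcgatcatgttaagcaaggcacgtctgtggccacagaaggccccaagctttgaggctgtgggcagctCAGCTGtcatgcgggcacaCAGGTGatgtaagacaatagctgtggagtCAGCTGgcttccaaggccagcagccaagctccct
Musk: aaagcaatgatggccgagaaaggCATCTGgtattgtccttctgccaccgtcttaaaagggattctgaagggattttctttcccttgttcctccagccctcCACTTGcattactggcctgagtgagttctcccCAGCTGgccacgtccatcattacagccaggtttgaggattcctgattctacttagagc
Agrn: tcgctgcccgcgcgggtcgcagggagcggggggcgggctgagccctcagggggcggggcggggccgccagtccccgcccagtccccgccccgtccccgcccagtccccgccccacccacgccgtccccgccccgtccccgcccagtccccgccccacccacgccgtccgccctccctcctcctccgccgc

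*Chrng* held 3 E-boxes, 2 of them CAGCTG, which began 155 and 132 bases upstream of the start. *Chrna1* also held 3 E-boxes, with CAGCTG at 92 and 44 bases upstream and CAGGTG at 73. *Musk* held 3 as well, and its only CAGCTG lay 68 bases upstream. No E-box lay in the *Agrn* stretch, which was 84.7% G or C, and a second *Agrn* start had a single E-box 92 bases upstream. Of the genes whose sequence is not printed, *Chrnb1* held 3 E-boxes, none of them CAGCTG, and the 2 starts of *Dok7* held 1 and 0. Of all 32851 promoter windows of 250 upstream bases, 66.2% held CANNTG, 12.2% held 3 or more and 13.0% held CAGCTG. The N-box CCGGAA, of the kind bound by ETS factors, was searched on both strands, lay in none of the 8 windows of these genes and was present in 12.0% of all windows. These matches describe letters in the windows and not binding. *Chrnb1* and *Dok7* rose at D2 without a CAGCTG in their windows, and a link between E-boxes and the rise was not tested. The sequence table matched 6 of the 9 measured genes.

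The libraries held 26437823 to 41619016 expected counts (estimated read counts, which need not be whole). Levels are given as CPM, counts relative to the size of the library, which use scaling factors of the trimmed mean of M-values (TMM) method and include 0.5 added to each count. *Tmpo* counts all LAP2 isoforms, and its level overlapped between the 9 WT libraries (106.1 to 314.6 CPM) and the 9 KO libraries (94.5 to 260.4 CPM), so that it does not check the loss of LAP2α. Same-numbered libraries deviated in common, and WT D2 replicate 1 held the highest level of 8 of the 9 genes among the 6 D2 libraries. Myoblast and early myotube markers (7 of 8 measured, with *Pax7* not analysed here) summed to 32.2 to 62.4 CPM before D2, 2071 to 4362 CPM in WT D2 and 1235 to 1523 CPM in KO D2. Of the neuron list only 2 of 8 markers were measured, and they summed to 0.884 to 3.94 CPM over all libraries, with *Chat* not analysed here. Schwann cell (4 of 6 measured), endothelial (4 of 5) and macrophage markers (2 of 5) summed to at most 4.84, 2.74 and 9.66 CPM in any library. Fibroblast markers (6 of 7 measured) summed to 26.3 to 138.1 CPM before D2, 282.7 to 286.2 CPM in WT D2 and 316.0 to 591.0 CPM in KO D2, and their part in the results below was not tested.

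In proliferating cells, the receptor subunits and their clustering genes stood at very unequal levels. Per kilobase of annotated exons, WT Prol cells held 11.1 ± 1.23 CPM (SD, n = 3) of *Agrn* and 5.82 ± 1.51 CPM of *Chrnb1*, the β subunit. *Chrna1*, which encodes the α subunit that binds acetylcholine, followed at 2.49 ± 1.06 CPM per kilobase and overlapped *Lrp4* at 1.58 ± 0.458. *Rapsn* and *Musk* lay at 0.945 ± 0.276 and 0.545 ± 0.0988 CPM per kilobase and touched in their ranges (lowest *Rapsn* library 0.646, highest *Musk* library 0.656). *Chrnd*, *Dok7* and *Chrng* were at 0.105 ± 0.0289, 0.0564 ± 0.0320 and 0.0546 ± 0.0318 CPM per kilobase, and their libraries overlapped. In counts, *Chrng* had 4 to 9 and *Dok7* 3 to 14 per WT Prol library, so that these genes were detected at few counts only. The same order of means was found with the length of the longest annotated transcript.

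**Figure D1:**
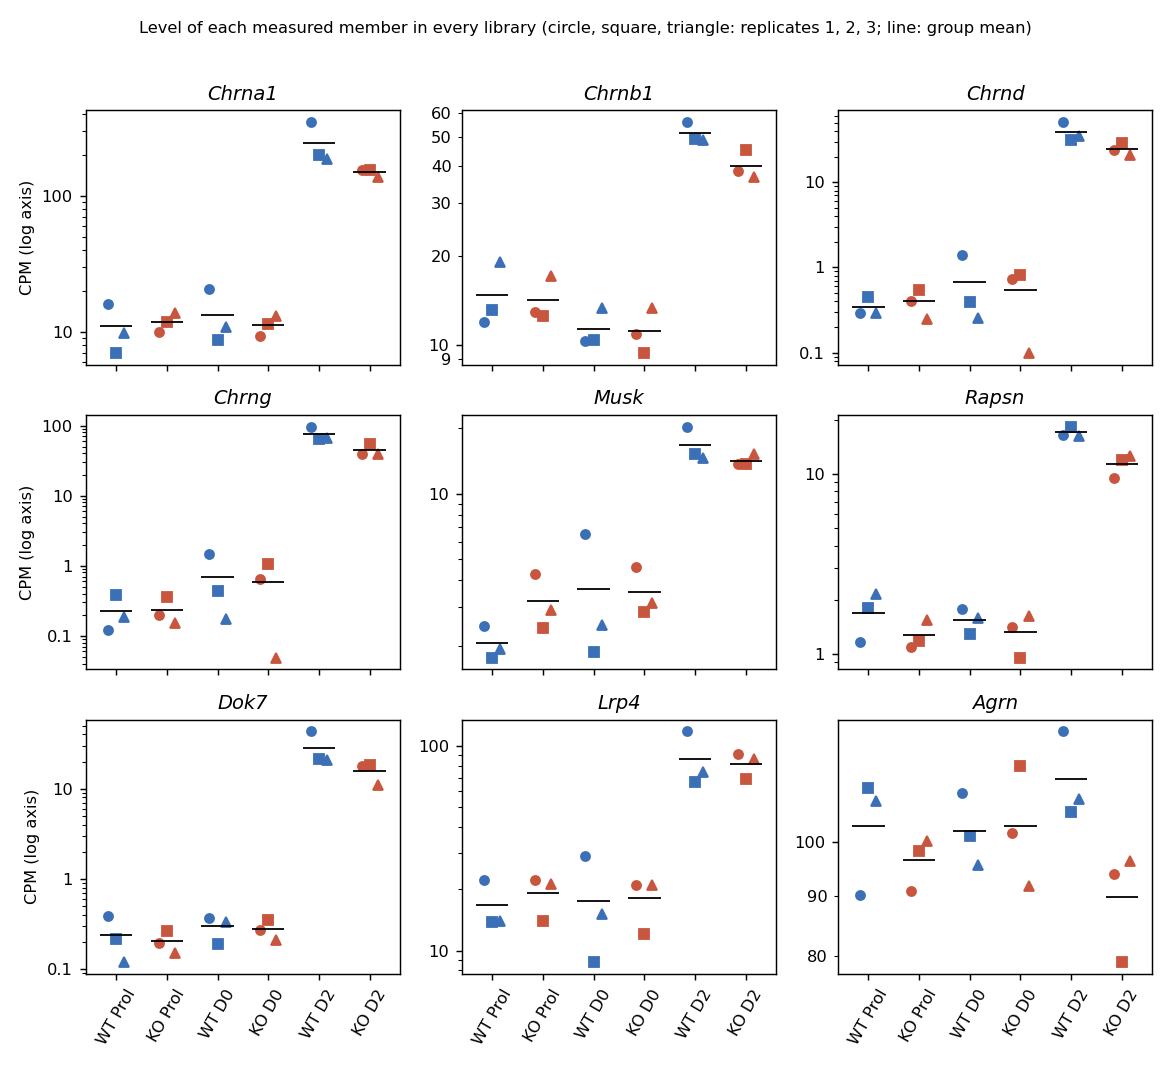
Level (CPM, log axis) of each of the 9 measured genes in the 18 libraries, with WT in blue, KO in red, the replicate number as the shape of the point and the mean of each group as a line. All D2 libraries lie above all Prol libraries of the same genotype for 8 genes, and Agrn stays between 79.0 and 124.2 CPM throughout.

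The step from Prol to D0 asks whether confluence alone changed these genes. A gene was called when limma gave it an unadjusted p-value under 0.05, its fitted fold exceeded 1.5 in either direction, and 1 or more of the compared libraries reached 10 CPM. None of the 9 genes was called in WT D0/Prol (0.193% of all genes called) or in KO D0/Prol (0.120%), and none had an unadjusted p under 0.05. *Chrnd*, *Chrng*, *Dok7*, *Musk* and *Rapsn* stayed under 10 CPM in all of these libraries, so that they could not be called. Without that minimum none of the 9 genes was called either, beside 1.67% of all genes in WT and 0.997% in KO. *Chrng* was at 1.46, 0.430 and 0.176 CPM in the 3 WT D0 libraries and at 0.642, 1.06 and 0.0484 CPM in the KO D0 libraries, whereas no Prol library exceeded 0.376 CPM. *Chrnd* was at 1.40, 0.396 and 0.254 CPM in WT D0 and at 0.741, 0.806 and 0.0984 CPM in KO D0. Thus 1 D0 library of each genotype held more than 1 CPM of *Chrng*, and the lowest lay within or below the Prol range. WT D0 replicate 1 and KO D0 replicate 2, which were highest in *Chrng* and *Chrnd*, were also highest in *Myog* (4.53 and 3.15 CPM) and in the embryonic myosin *Myh3* (11.3 and 5.29 CPM). For *Agrn*, the difference of KO D0/Prol was 0.09 on the log2 scale with a 95% interval from -0.24 to 0.42.

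At D2, 8 of the 9 genes had risen in WT cells and the same 8 in KO cells, while *Agrn* had not passed the test in either. Over all genes, 9.91% were called higher in WT D2/Prol and 10.4% in KO D2/Prol. In WT the median log2 fold change of the 9 genes was 3.38, beside -0.01 over all genes, and in KO it was 3.18 beside 0.04. All D2 libraries lay above all Prol libraries for 8 genes in each genotype, as they did for 21.7% of all genes in WT and 23.8% in KO. Against D0, 8 genes were also called higher in WT (background 9.59%) and 8 in KO (9.84%), and the same gene, *Agrn*, was missing from both.

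Among the receptor subunits, *Chrng* rose the most. It went from 0.120, 0.376 and 0.186 CPM in WT Prol to 96.5, 65.2 and 65.5 CPM in WT D2, and reached 39.9, 54.1 and 39.7 CPM in KO D2 from 0.195, 0.362 and 0.1498 CPM. The fitted rise was 379.5-fold in WT (95% interval 111.3 to 1293, limma adjusted p = 2.1e-06) and 200.1-fold in KO (60.7 to 660.0). These wide intervals reflect the 4 to 11 counts of *Chrng* in the Prol libraries. *Chrnd*, the δ subunit gene and neighbour of *Chrng* on chromosome 1 with 4586 bases between them, rose 114.2-fold in WT (45.5 to 286.5) and 64.0-fold in KO (26.3 to 155.8). These rises of *Chrnd* rest on 7.05 to 16.7 counts per Prol library.

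*Chrna1* and *Chrnb1* started from measurable levels and rose less. *Chrna1* was at 16.1, 6.95 and 9.74 CPM in WT Prol and at 348.5, 198.7 and 186.2 CPM in WT D2. The 3 KO D2 libraries held 153.6, 155.5 and 137.8 CPM of *Chrna1*, after 10.02, 11.7 and 13.6 CPM in KO Prol. Its rise was 22.3-fold in WT (13.5 to 36.8, limma adjusted p = 3.6e-07) and 12.7-fold in KO (7.85 to 20.7). *Chrnb1* had the smallest rise of the 8 genes, 3.57-fold in WT (2.65 to 4.82) and 2.85-fold in KO (2.12 to 3.84), from 14.7 ± 3.82 to 51.5 ± 4.08 CPM in WT and from 14.2 ± 2.50 to 40.1 ± 4.51 CPM in KO (SD, n = 3).

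The mix of subunit transcripts per length differed between states. Of the summed CPM per kilobase of the 4 measured subunits, *Chrnb1* made up 68.6 ± 11.3% in WT Prol and 19.8 ± 3.47% in WT D2 (SD, n = 3). *Chrna1* went from 29.4 ± 11.8% to 51.7 ± 4.36%, *Chrng* from 0.693 ± 0.519% to 17.3 ± 0.690%, and *Chrnd* from 1.30 ± 0.590% to 11.2 ± 0.720%. In KO D2 the shares were 50.1 ± 2.60% for *Chrna1*, 23.3 ± 0.552% for *Chrnb1*, 15.7 ± 1.52% for *Chrng* and 11.0 ± 0.770% for *Chrnd*. The share of *Chrnb1* was 22.7 to 23.8% in KO D2 and 15.8 to 22.0% in WT D2, and the shares of the other subunits overlapped between the genotypes. With the longest transcript as length, the share of *Chrng* in WT D2 was 22.8 ± 0.721%, above *Chrnb1* at 20.5 ± 3.44%, so that their order at D2 depends on the length taken. Of 11 other nicotinic subunits listed, only *Chrnb2* and *Chrnb4* were measured, and neither exceeded 0.642 CPM in any library. The shares cover the 4 measured subunits alone, so that the part of *Chrne* and of the other unmeasured subunits is not known.

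**Figure D2:**
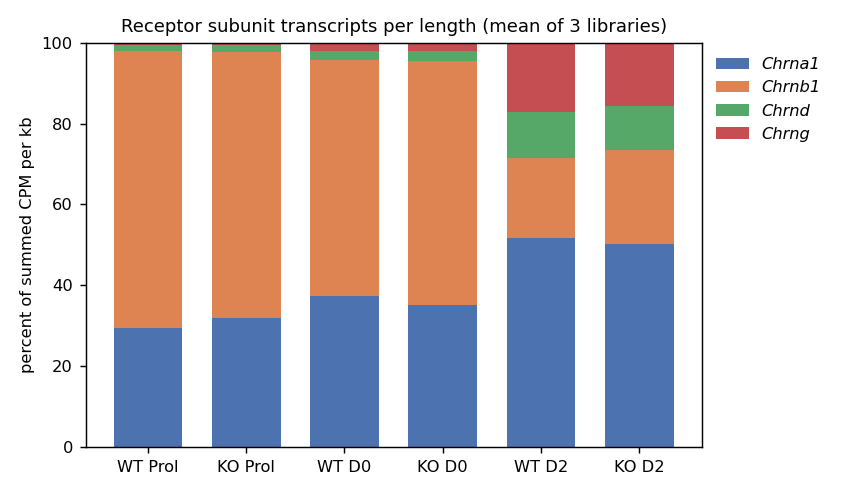
Mean share of each measured acetylcholine receptor subunit in the summed CPM per kilobase of annotated exons (percent, stacked bars, mean of 3 libraries per group). Chrnb1 makes up the largest share in Prol and D0, and Chrna1 does so at D2 with 51.7% in WT and 50.1% in KO.

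The genes downstream of agrin rose over a similarly wide range. *Dok7*, the activator of MuSK, went from 0.388, 0.217 and 0.118 CPM in WT Prol to 43.3, 21.2 and 20.8 CPM in WT D2. KO D2 libraries held 17.98, 18.3 and 11.1 CPM of *Dok7*. The rise was 121.2-fold in WT (52.5 to 279.9, limma adjusted p = 5.5e-07) and 77.4-fold in KO (33.1 to 181.1), and it too rests on 3 to 14 counts per Prol library. *Rapsn* was at 1.16, 1.80 and 2.14 CPM in WT Prol and at 16.4, 18.3 and 16.2 CPM in WT D2, with 9.54, 12.0 and 12.6 CPM in KO D2. Its libraries lay close together at D2, and it rose 10.4-fold in WT (7.17 to 15.1) and 9.03-fold in KO (6.09 to 13.4).

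*Musk* and *Lrp4*, which form the agrin receptor, rose 8.02-fold (4.75 to 13.6) and 5.11-fold (2.96 to 8.82) in WT. In KO the rises were 4.55-fold for *Musk* (2.78 to 7.46) and 4.38-fold for *Lrp4* (2.56 to 7.497). *Musk* was at 20.4, 15.2 and 14.6 CPM in WT D2 and 13.7, 13.7 and 15.2 CPM in KO D2, and *Lrp4* was at 117.9, 66.3 and 74.7 CPM and 91.0, 68.8 and 86.2 CPM, so that the genotypes overlapped for both. *Lrp4* was highest in replicate 1 and lowest in replicate 2 in 6 of 6 groups. *Utrn*, the gene of utrophin, a large membrane protein of the postsynapse, showed the same order in 6 of 6 groups.

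*Agrn* was the exception. It was at 90.2, 111.1 and 108.3 CPM in WT Prol, 124.2, 106.2 and 108.9 CPM in WT D2, 90.9, 98.3 and 100.3 CPM in KO Prol and 93.9, 79.0 and 96.4 CPM in KO D2. The log2 difference of WT D2/Prol was 0.13 (95% interval -0.20 to 0.47) and that of KO D2/Prol was -0.11 (-0.44 to 0.23), so that these intervals leave out a change of 1.5-fold in either direction. *Agrn* counts all its isoforms, and the neural splice form that activates MuSK strongly cannot be told apart from the others in gene counts. At D2 its level per kilobase of annotated exons in WT (12.2 ± 1.05 CPM) was exceeded by *Chrna1* (55.7 ± 20.6), *Chrnb1* (20.3 ± 1.61) and *Chrng* (18.2 ± 4.32), the last pair overlapping. *Chrnd* (11.8 ± 3.24), *Rapsn* (9.42 ± 0.634), *Lrp4* (8.21 ± 2.64), *Dok7* (6.65 ± 3.02) and *Musk* (4.43 ± 0.842) followed, each overlapping the next in its libraries. With the longest transcript as length, the means of *Chrng* (27.2) and *Chrnb1* (23.9), of *Chrnd* (13.2) and *Agrn* (13.1), and of *Lrp4* (10.9) and *Rapsn* (10.6) stood in the opposite order.

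KO and WT cells were compared in each state to ask whether the loss of LAP2α went with altered levels. In Prol none of the 9 genes was called (background 0.110%), and none was called at D0 (0.204%). The intervals were narrow for *Agrn*, at -0.43 to 0.24 on the log2 scale in Prol, and wider for *Chrna1* (log2 difference 0.15, -0.58 to 0.88). For *Chrng* the interval in Prol ran from -2.16 to 2.49, and a difference of that size was not detectable at this depth.

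At D2, the fitted levels of all 9 genes were lower in KO than in WT, and *Dok7* alone was called. For *Lrp4* this direction rested on single libraries, since its log2 difference was 0.214 without WT D2 replicate 1 and 0.0823 without KO D2 replicate 2. Over all genes 0.679% were called lower. The KO libraries lay below all WT libraries for 7 of the 9 genes, all but *Musk* and *Lrp4*, as they did for 3.70% of all genes. The median log2 difference was -0.58 for the 9 genes and -0.01 over all genes. None of the 9 genes had an adjusted p under 0.05 (all 1.00, limma), and neither had any of the 19153 genes, of which 593 had an unadjusted p under 0.05. In bulk RNA, fewer differentiated cells and less RNA of a gene per cell cannot be told apart.

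*Dok7* was lower by 0.80 on the log2 scale in KO D2 (log2 difference -0.80, SE 0.28, 95% interval -1.38 to -0.21, limma adjusted p = 1.00, and 0.251 to 1 over the alternatives). This call rested on single libraries, since without WT D2 replicate 1 the difference was -0.45 and without KO D2 replicate 3 it was -0.56, and in both cases *Rapsn* and not *Dok7* was called, with 2.06% and 1.27% of all genes called in either direction. Without WT D2 replicate 3, 3 genes were called (*Chrna1*, *Rapsn* and *Dok7*), beside 1.04% of all genes. There were 2 without WT D2 replicate 2 (0.877% of all genes) and 2 without KO D2 replicate 2 (0.867%), and these shares stand beside 0.914% with all libraries. *Rapsn* had a log2 difference of -0.58 (SE 0.19, -0.99 to -0.17, limma adjusted p = 1.00) and missed the call by the 1.5-fold criterion alone. *Chrng* (-0.76, -1.59 to 0.07), *Chrna1* (-0.66, -1.35 to 0.03) and *Chrnd* (-0.64, -1.33 to 0.05) passed the 1.5-fold criterion but not the p-value. Without WT D2 replicate 1 they were at -0.57, -0.37 and -0.42, short of 1.5-fold. For *Chrnb1* (-0.36, -0.77 to 0.04) and *Agrn* (-0.33, -0.67 to 0.00) the intervals also reached 0. *Musk* (-0.22, -0.80 to 0.36) and *Lrp4* (-0.04, -0.81 to 0.73) overlapped between the genotypes.

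With the replicate number as a block, 4 of the 9 genes were called lower in KO D2, namely *Chrna1*, *Chrnd*, *Chrng* and *Dok7*, where 0.961% of all genes were called lower. The log2 difference was -0.66 for *Chrna1* (SE 0.25, limma adjusted p = 0.609), -0.63 for *Chrnd* (SE 0.26, adjusted p = 0.655), -0.76 for *Chrng* (SE 0.30, adjusted p = 0.644) and -0.79 for *Dok7* (SE 0.20, adjusted p = 0.251). Within pairs of equal number, the log2 ratio of KO over WT at D2 was -1.18, -0.35 and -0.43 for *Chrna1*. It was -1.27, -0.27 and -0.72 for *Chrng* and -1.27, -0.21 and -0.91 for *Dok7*. *Chrnd*, with -1.09, -0.09 and -0.73, had the smallest single difference of the 4 genes called with the block. For *Rapsn*, which was not called, it was -0.78, -0.61 and -0.37. Replicate 1 thus held the largest difference of each of these 5 genes. The sign was the same in 3 of 3 pairs, as any pairing would give, since all their KO libraries lay below all WT libraries. *Musk* and *Lrp4* had pairs of both signs.

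**Figure D3:**
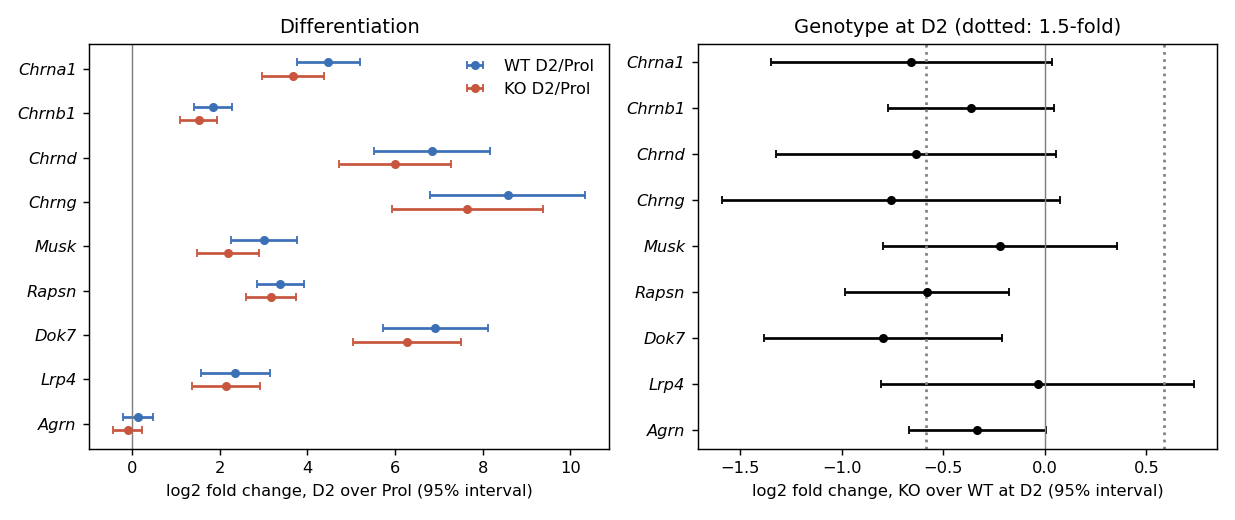
Fitted log2 fold changes with 95% intervals (bars) for D2 over Prol in WT (blue) and KO (red) on the left and for KO over WT at D2 on the right, where dotted lines mark 1.5-fold. Agrn is the only gene whose D2 over Prol intervals include 0, and on the right all 9 points lie below 0, with that of Lrp4 above 0 when WT D2 replicate 1 is left out (0.214), while only the intervals of Rapsn and Dok7 exclude it.

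Myogenic markers are given beside these values. *Myog*, which was not called, was at 532.4, 385.9 and 260.8 CPM in WT D2 and at 213.3, 232.1 and 147.6 CPM in KO D2, with a log2 difference of -0.96 (95% interval -1.93 to 0.01, limma adjusted p = 1.00). The KO libraries of *Myog* lay below all WT libraries, as did those of 6 of the 7 measured myoblast and early myotube markers, 3 of which (*Actc1*, *Ckm* and *Des*) were called lower. Over all genes, 3.70% lay below in this way and 0.679% were called lower. The median log2 difference of KO/WT D2 was -0.91 for the 7 markers, beside -0.58 for the 9 junction genes. The part of these markers in the levels of the receptor genes was not tested.

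Whether the genotypes diverged during differentiation was asked by subtracting KO/WT at Prol from KO/WT at D2. This estimate was negative for all 9 genes, with a median of -0.65 beside -0.01 over all genes, and none was called (background 0.172%). The intervals of all 9 genes ran from negative to positive values, so that the shared sign does not show a divergence. The median was the estimate of *Dok7* (SE 0.81, -2.37 to 1.07), which had few counts in Prol. The same holds for *Chrng* (-0.92, SE 1.16, -3.39 to 1.55) and *Chrnd* (-0.84, SE 0.87, -2.68 to 1.01), whose intervals were wider still. The sign turned for *Lrp4* without WT D2 replicate 1 (0.0275) and for *Rapsn* without WT Prol replicate 1 (0.0681). *Musk* had an estimate of -0.82 (SE 0.49, -1.86 to 0.22), since it was at 4.27, 2.41 and 2.91 CPM in KO Prol and at 2.48, 1.76 and 1.94 CPM in WT Prol. With the replicate block, *Musk* was called (-0.86, SE 0.36, limma adjusted p = 1.00), where 0.663% of all genes were called. For *Chrna1* the estimate was -0.81 (-1.81 to 0.20), and without WT Prol replicate 1 it was -1.16 and called, beside 0.136% of all genes.

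A wider set of junction genes was described in the same way. Of 80 related genes, 67 were measured, 19 of which rose and 2 fell in WT D2/Prol (background 9.91% higher, 11.8% lower), with a median log2 fold change of 0.50. In KO D2/Prol, 18 rose and 3 fell (10.4% of all genes were called higher and 12.6% lower), with a median of 0.58. In KO/WT D2 none of the 67 was called higher (0.235% of all genes) and 2 were called lower (0.679% of all genes), *Erbb3* and *Sntb1*, with a median of 0.00. Only *Lama5*, a laminin chain, was called in KO/WT Prol (0.110% of all genes called) and in KO/WT D0 (0.204%), lower in both. In KO/WT D2 the median log2 difference was -0.58 for the 9 genes, 0.10 for the 10 measured genes of the synaptic cleft, 0.09 for the 14 of the postsynaptic scaffold, -0.05 for the 18 cytoplasmic partners of MuSK, -0.01 for the 7 of the neuregulin and ETS group, -0.22 for the 7 transcriptional regulators and 0.06 for the 9 of receptor assembly and glycosylation.

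**Figure D4:**
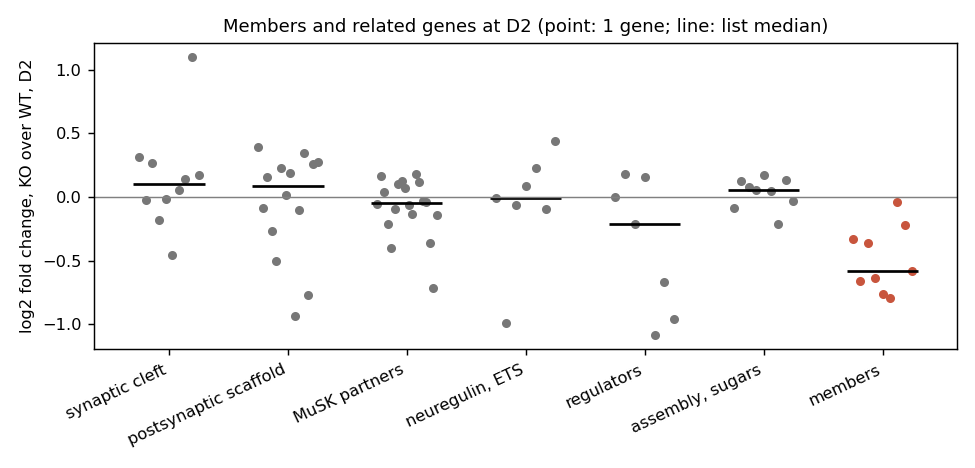
Fitted log2 fold change of KO over WT at D2 for single genes (points) of 6 related lists (grey) and of the 9 measured neuromuscular junction genes (red, "members"), with the median of each list as a line. The 9 genes lie between -0.80 and -0.04 with a median of -0.58, and the medians of the other lists lie between -0.22 and 0.10. The myoblast and early myotube markers are not among these lists and had a median of -0.91.

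Of the 67 related genes, *Myog*, *Erbb3* and *Myod1* had the largest called rises in WT D2/Prol. *Myod1*, the gene of MyoD, went from 2.59 ± 1.94 CPM in WT Prol to 88.9 ± 10.4 CPM in WT D2 (log2 fold change 5.51, SE 0.49) and to 57.2 ± 15.6 CPM in KO D2 (SD, n = 3). *Erbb3*, which encodes a neuregulin receptor, was at 0.154 ± 0.0617 CPM in WT Prol and at 52.0, 23.5 and 21.7 CPM in WT D2. In KO D2 it reached 19.6, 13.8 and 12.8 CPM, at least 139.4-fold higher than the limit of 3 counts per library, since all KO Prol libraries lay at or under it. Its log2 difference of KO/WT D2 was -0.99 (SE 0.33, -1.70 to -0.28, limma adjusted p = 1.00), and all KO libraries were below all WT libraries. *Sntb1*, a syntrophin of the dystrophin complex, was at 33.3, 20.4 and 15.8 CPM in WT D2 and 15.2, 13.7 and 10.5 CPM in KO D2 (log2 difference -0.77, SE 0.32, limma adjusted p = 1.00).

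Other genes of the junction behaved otherwise. *Etv4*, an ETS factor of the neuregulin pathway, fell by 2.70 on the log2 scale in WT (SE 0.45) and by 2.58 in KO, and its relative *Etv5* had differences of 0.12 in each (95% interval -1.20 to 1.45 in WT). *Dpagt1*, which starts protein N-glycosylation, fell by 0.80 in WT (SE 0.20) and by 0.59 in KO on that scale. *Cdk5*, a kinase active at the synapse, had the smallest called rise of the related genes in WT D2/Prol (log2 fold change 0.85, SE 0.32, limma adjusted p = 0.0580). *Utrn* had a log2 fold change of 0.08 in WT (-1.32 to 1.48), with 223.4, 57.0 and 80.5 CPM in WT D2, an interval too wide to show a change of 1.5-fold. *Colq*, the collagen tail that anchors acetylcholinesterase, was at or under 3 counts in all Prol libraries and at 2.48, 2.04 and 2.21 CPM in WT D2 and 1.59, 3.74 and 1.66 CPM in KO D2, at least 19.2-fold and 21.1-fold higher. *Ache*, the gene of acetylcholinesterase itself, was likewise at or under 3 counts in Prol. It was at 0.267 to 0.670 CPM in WT D2 and 0.197 to 0.813 CPM in KO D2. The mean of *Ache* was at least 3.65-fold higher in WT D2 and 5.27-fold higher in KO D2. Both *Colq* and *Ache* stayed under the 10 CPM that a call requires.

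Outside these lists, the genes with the most similar profiles were found from the root-mean-square difference of centred log2 levels over the 18 libraries, among 14176 genes. Closest to *Chrna1* were *Ccdc141* (0.3004) and *Mef2c* (0.371), a myogenic transcription factor gene. *Ccdc141* was at 4.17 ± 1.42 CPM in WT Prol, 116.6 ± 44.2 in WT D2 and 75.9 ± 9.91 in KO D2 (SD, n = 3). Closest to *Musk* were *Ank1* (0.277), an ankyrin gene, and *Pacs2* (0.296), and closest to *Agrn* were *Gid8* (0.140) and *Zfp865* (0.143). Since *Agrn* varied little, a small difference from it shows only that the other gene varied little too. *Zfp865* was at 27.9 ± 1.53 CPM in WT D2 and 28.0 ± 1.40 in KO D2, where *Agrn* was at 113.1 ± 9.76 and 89.8 ± 9.43 (SD, n = 3). Of the 9 genes themselves, *Rapsn* was the most similar to *Chrna1* (0.597) and *Lrp4* to *Musk* (0.308).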

How the data were processed

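RNA-seq was available for 18 libraries in 6 groups of 3, taken from the sample labels. Per the labels and the study's methods, the authors trimmed reads with cutadapt, estimated expected counts with RSEM on GRCm38, scaled them by TMM (edgeR) and transformed them with voom. The deposited values are CPM with 0.5 added to each expected count. From them, expected counts and library totals were recovered (product of scaling factors 1.0, and 36.0% to 49.1% of counts under 20 whole). Log2 CPM were fitted with limma 3.58.1 (R 4.3.3), voom weights, a single factor of 6 groups and all 19153 genes, with Benjamini-Hochberg adjustment over all of them. The same steps were tested on data simulated for WT D2/Prol with 19153 genes, where 90 of 100 genes given a 2-fold change were called, and 99 of 100 given a 4-fold change. The changed genes were drawn from those above 10 CPM in WT Prol, and the simulated libraries varied independently of each other. These shares therefore do not cover genes with few counts in Prol, nor KO/WT D2. Positions and exon lengths were taken from GENCODE M21, and 19072 genes had a symbol. Figures used matplotlib 3.10.9.

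The 10 genes and the related lists were chosen with earlier results of these data known. Of the related genes called in WT D2/Prol, the 3 with the highest and the 3 with the lowest signed log2 fold change were named, falls counting as lowest. Also named were those called in KO/WT D2, *Myog*, *Ache*, *Colq*, *Utrn*, *Erbb3* and *Etv5*. The 2 genes most similar to each of *Chrna1*, *Musk* and *Agrn* (at least 1 CPM in 3 libraries) were named as well. Other genes are named to show markers and exceptions and were chosen after their values were seen. Sequencing lanes, which the study used as a block, were not in the labels. Same-numbered libraries deviated together in the data (correlation of deviations over 13299 genes at least 0.11 in every pair of each comparison but WT D2/D0, where the lowest was 0.0528), so that blocked values are given where they change a call. Folds against groups with at most 3 counts per library are lower bounds for the mean of the D2 group and not for each library, and counting limits cover counting error only. The alternatives were other scalings, weights, filters, pseudocounts, blocks, samples and criteria. The ratio of *Chrng* to *Chrne* was not computed because *Chrne* was not analysed here.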

Additional observations from a re-analysis of the deposited data

How the results depend on the processing

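The count of 8 genes called in WT D2/Prol, KO D2/Prol, WT D2/D0 and KO D2/D0, and of 0 in D0/Prol, KO/WT Prol and KO/WT D0, was the same in each of the 17 alternatives run for each comparison. In KO/WT D2, 1 gene was called, beside 0.914% of all genes. The count was 2 with median-of-ratios scaling (0.919% of all genes) and when only the groups compared were fitted (0.799%). It was 3 with library totals alone (0.971%) and with log2(CPM + 1) (0.888%), and 4 with a fixed (1.8%) or random replicate block (1.53%). It was 0 with an adjusted p under 0.05 or a log2 fold change over 1.5, and 1 to 3 with each library left out (0.757% to 2.06%). *Dok7* was not called without weights where *Rapsn* was, nor when only the groups compared were fitted, where *Chrnd* and *Chrng* were. In that comparison 175 of all genes were called (45 higher, 130 lower), beside 85 without weights (37 and 48), 344 with the fixed block (160 and 184), 293 with the random block (125 and 168), 394 without WT D2 replicate 1 (228 and 166), 540 with no minimum CPM, 14 with a log2 fold change over 1.5 and 0 with an adjusted p under 0.05. For the difference of the KO effect, the count of 0 became 1 with a fixed (0.663% of all genes) or random block (0.543%). It was also 1 when only the groups compared were fitted (0.209%), and 0 to 1 with each library left out (0.136% to 0.496%). The sign turned for *Agrn* in KO D2/Prol with library totals alone (0.0237). With single libraries left out, *Lrp4* ranged from -0.203 to 0.214 in KO/WT D2, and in the difference of the KO effect *Lrp4* ranged from -0.465 to 0.0275 and *Rapsn* from -0.401 to 0.0681. The replicate block changed no other call of the 9 genes. The planned ratio of *Chrng* to *Chrne* was not run, since *Chrne* was not analysed here. Where Prol libraries held under 15 counts (*Chrng*, *Dok7*) or 7.05 to 16.7 counts (*Chrnd*), depth limits the size of the rise. In WT D2/Prol the log2 fold change was 8.57 for *Chrng*, 6.84 for *Chrnd* and 6.92 for *Dok7*. The lowest values over the alternatives were 5.97, 4.88 and 4.51, from log2(CPM + 1), which by itself shrinks folds that start under 1 CPM. With single libraries left out, the lowest values were 8.16, 6.62 and 6.48.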
